A study of Homo sapiens with 16 samples.

Results

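Transcripts of the MHC class II genes and of their master regulator were measured in 4 human breast cell lines, on 16 arrays of the Affymetrix U133 2.0 type. The 8 genes are HLA-DRA, HLA-DPA1, HLA-DPB1, HLA-DRB4, HLA-DMA, HLA-DMB, CD74 and CIITA, out of 11963 genes with a probe set that names 1 gene. They were measured by 15 of 19064 such probe sets, and every one of the 15 is described here whatever its values. None of the 15 carries the x_at suffix that marks a probe set open to cross-hybridisation. The suffix s_at, which marks probes shared by several transcripts, was on 5 of them. The genes were chosen by their differences between these same groups in earlier results of the same arrays, above all in LM24175. Their differences and intervals are therefore given as a description, with no p-value, and the number called says nothing independent. A probe set is called where its adjusted p is under 0.05 in the fit over all 19064.

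Each of the 8 groups held 2 arrays. MDAMB231 and LM24175 are the invasive lines, and LM24175 was derived from MDA-MB-231 for its metastasis to the lung. Each was stably infected with an empty vector (EV) or with a construct that expresses RECK constitutively (RECK). RECK is a membrane-anchored inhibitor of matrix metalloproteinases. The poorly invasive lines, Hs343T and Hs606T, were transfected with a scrambled siRNA (siSCR) or with an siRNA against RECK (siRECK). The labels name no stimulus, so no group is known to have been treated with interferon. No label says that replicate arrays are separate cultures. The tests therefore rest on the spread within pairs of arrays, and that spread may be technical. In bulk RNA, fewer cells that express a gene and less RNA per cell cannot be told apart.

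MHC class II molecules are pairs of an alpha and a beta chain that show peptides from endosomes to CD4+ T cells. HLA-DRA is the alpha chain of HLA-DR and pairs with a chain from an HLA-DRB gene, while HLA-DPA1 and HLA-DPB1 make up HLA-DP. CD74, the invariant chain, fills the groove and guides the pair to the endosome, where HLA-DM, made of HLA-DMA and HLA-DMB, replaces its remnant with peptide. CIITA is a coactivator that binds no DNA itself and is recruited by RFX, NF-Y and CREB factors on the promoters of all these genes. Dendritic cells, B cells and macrophages express the set without stimulation. Other cells, among them many tumour cells and fibroblasts, do so after interferon gamma, which acts through JAK kinases and IRF1 on CIITA.

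The promoters are shown because the class II genes and CD74 share this regulation. RefSeq windows on GRCh38.p14 were at hand for 5 of the 8 genes, 6 windows in all because HLA-DPA1 has 1 for each of 2 starts. They ran from 250 bases before to 50 after the start, and the 200 bases that end just before the start are printed 5′ to 3′ along the gene. HLA-DRA, HLA-DRB4 and CIITA are named only. Capitals mark matches, on either strand, to the CCAAT box of NF-Y (CCAAT), to a CREB-type box (TGACG) or to an RFX-type box (GCAAC).
HLA-DPA1, chr6:33073650-33073849, minus strand: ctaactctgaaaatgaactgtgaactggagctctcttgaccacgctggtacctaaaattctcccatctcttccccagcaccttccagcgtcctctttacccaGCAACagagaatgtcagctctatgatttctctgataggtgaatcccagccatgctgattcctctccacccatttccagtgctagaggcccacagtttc
HLA-DPA1 at its other start, chr6:33080749-33080948, minus strand: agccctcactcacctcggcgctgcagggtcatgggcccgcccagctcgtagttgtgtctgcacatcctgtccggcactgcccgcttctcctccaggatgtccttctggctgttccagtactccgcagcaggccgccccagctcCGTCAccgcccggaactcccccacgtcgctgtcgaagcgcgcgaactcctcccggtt
HLA-DPB1, chr6:33075790-33075989, plus strand: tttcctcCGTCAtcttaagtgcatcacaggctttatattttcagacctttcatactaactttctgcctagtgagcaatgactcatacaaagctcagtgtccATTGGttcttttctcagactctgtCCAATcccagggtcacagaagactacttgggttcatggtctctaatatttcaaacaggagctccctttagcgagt
HLA-DMA, chr6:32953098-32953297, minus strand: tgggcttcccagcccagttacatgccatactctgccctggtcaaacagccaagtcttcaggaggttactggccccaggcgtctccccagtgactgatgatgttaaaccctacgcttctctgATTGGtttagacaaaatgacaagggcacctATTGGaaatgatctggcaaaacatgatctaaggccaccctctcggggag
HLA-DMB, chr6:32941029-32941228, minus strand: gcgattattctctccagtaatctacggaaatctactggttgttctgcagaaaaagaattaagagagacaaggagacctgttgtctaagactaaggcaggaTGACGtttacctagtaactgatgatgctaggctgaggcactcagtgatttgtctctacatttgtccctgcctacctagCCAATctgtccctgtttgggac
CD74, chr5:150412911-150413110, minus strand: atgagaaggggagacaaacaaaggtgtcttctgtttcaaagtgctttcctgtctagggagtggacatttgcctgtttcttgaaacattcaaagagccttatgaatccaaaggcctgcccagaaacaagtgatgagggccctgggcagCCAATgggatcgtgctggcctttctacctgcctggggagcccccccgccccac
A CCAAT box or its reverse complement stood in 4 of these 6 windows: in CD74 from -53, in HLA-DMB from -22, in HLA-DMA from -79 and from -49, and in HLA-DPB1 from -99 and from -75. Over all 35116 windows of 300 bases, 34.6% held it. The letters TGACG or CGTCA began at -100 in HLA-DMB, at -193 in HLA-DPB1 and at -57 before the other HLA-DPA1 start. Outside the bases printed, they began at -241 before the first HLA-DPA1 start. Thus 4 of the 6 windows held them, against 24.6% of all windows. By the coordinates above, the window of the other HLA-DPA1 start lies downstream of the HLA-DPB1 start, on the opposite strand. Its match may lie within HLA-DPB1 and was not shown to be a promoter element. HLA-DPA1 held GCAAC from -98 at the first start, and HLA-DMA held it from -215, outside the bases printed. That box stood in 33.6% of all windows. The core of the interferon-stimulated response element, in 3.57% of all windows, matched no window of these genes. The gamma-activated sequence (TTCNNNGAA), in 7.66% of all windows, matched none either. With shares this low, the lack of a match in 6 windows says little. These are matches of letters and not measured binding sites.

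RECK, the targeted gene, went against the siRNA labels on the same probe set in both Hs lines. Its brightest probe set, 205407_at, read 6.07 and 5.52 on the Hs343T siSCR arrays and 11.31 and 11.24 on those labelled siRECK (log2 difference 5.48, SE 0.16, limma with Benjamini-Hochberg adjustment, adjusted p = 8.85e-11). In Hs606T it read 8.74 and 8.65 on siSCR arrays and 11.17 and 11.02 on arrays labelled siRECK (difference 2.40, adjusted p = 8.96e-06). The other RECK probe sets moved less. In Hs343T 216153_x_at differed by 0.46 (adjusted p = 0.0015) and 216156_at by 0.27 (adjusted p = 0.195). In Hs606T they differed by 0.17 (adjusted p = 0.514) and by -0.10 (adjusted p = 0.861). With the construct 205407_at differed by 0.03 in MDAMB231 (adjusted p = 0.961) and by -0.42 in LM24175 (adjusted p = 0.179). Whether these probes can read the construct was not tested. Each direction in the siRNA lines below is that of the labels. All values are the deposited log2 values, with array medians of 6.42 to 6.57 and lower quartiles of 4.47 to 4.68. The 2 arrays of a group correlated at 0.994 to 0.998 across probe sets. Array 1 of MDAMB231_EV deviated from its replicate in the same way as array 1 of LM24175_RECK (r = 0.46 between their deviations across 19064 probe sets). Both arrays enter every value of their groups below, and they are not named again at each of these.

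HLA-DRA, the DR alpha chain, separated the invasive from the poorly invasive lines and ordered the invasive groups. Its probe set 208894_at read 11.28 and 11.73 in MDAMB231_EV, 11.29 and 11.23 in MDAMB231_RECK, 10.06 and 10.15 in LM24175_EV, and 8.60 and 9.12 in LM24175_RECK. In Hs343T it read 4.82 and 4.79 (siSCR) and 4.92 and 4.97 (siRECK), and in Hs606T 4.94 and 4.86 (siSCR) and 4.97 and 4.63 (siRECK). The MDAMB231 groups overlapped each other, LM24175_EV lay below both, and LM24175_RECK lay lower still. The 8 arrays of the Hs lines sat just above the lower quartile of their arrays, and no order among them went beyond what 2 arrays show. The other HLA-DRA probe set, 210982_s_at, gave the same order in the invasive groups, with means of 11.49, 11.03, 10.07 and 8.82.

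HLA-DPA1, the DP alpha chain, followed the same course on all 3 of its probe sets. On 211990_at, MDAMB231_EV read 11.23 and 12.02, MDAMB231_RECK 11.39 and 11.52, LM24175_EV 10.25 and 10.34, and LM24175_RECK 8.67 and 8.65. The Hs343T arrays read 4.14 and 4.52 (siSCR) and 4.82 and 4.44 (siRECK), and the Hs606T arrays 4.35 and 3.72 (siSCR) and 4.37 and 4.43 (siRECK). LM24175_RECK was the lowest invasive group, with no overlap with its empty vector, and all Hs arrays were near or below the lower quartile. The probe set 211991_s_at ran from a mean of 9.33 in MDAMB231_EV to 6.87 in LM24175_RECK, and 213537_at from 7.35 to 5.09. On 211991_s_at the Hs replicates were far apart, with 5.18 and 3.56 in Hs343T_siSCR and 3.68 and 4.93 in Hs606T_siRECK.

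**Figure D1:**
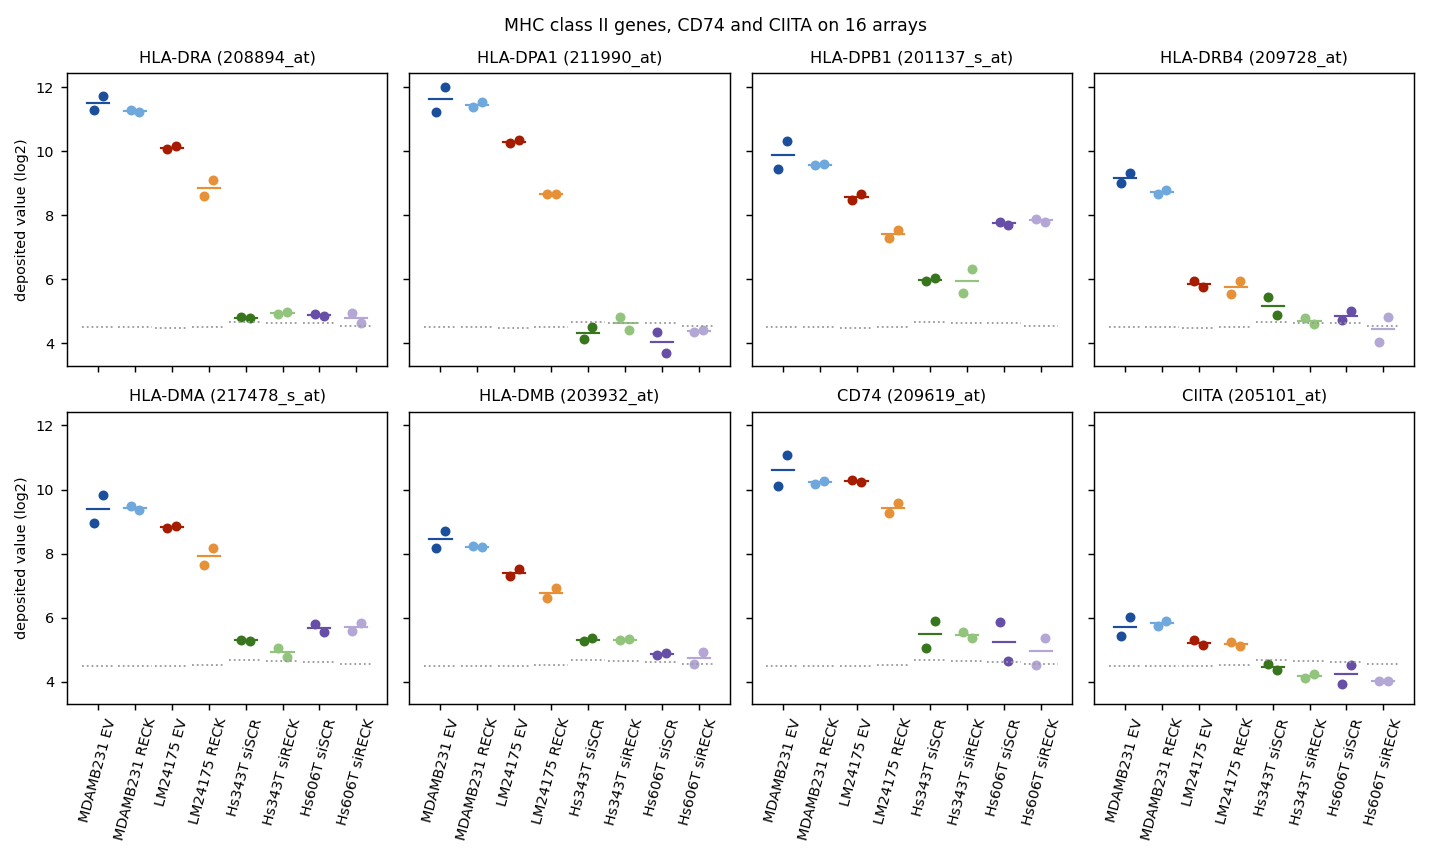
Deposited log2 values of the 8 genes on each of the 16 arrays, each gene on the probe set with its highest mean; points are arrays, solid bars are means of 2 arrays and dotted lines are the lower quartile of the arrays. HLA-DRA falls from a mean of 11.50 in MDAMB231_EV to 8.86 in LM24175_RECK and lies at 4.8 to 4.95 in the Hs groups, whereas HLA-DPB1 reads 7.75 and 7.85 in the Hs606T groups.

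HLA-DPB1, the DP beta chain, shared the order in the invasive lines and departed from it in Hs606T. Its probe set 201137_s_at read 9.46 and 10.31 in MDAMB231_EV, 9.55 and 9.59 in MDAMB231_RECK, 8.48 and 8.67 in LM24175_EV, and 7.29 and 7.55 in LM24175_RECK. Hs343T gave 5.94 and 6.04 (siSCR) and 5.56 and 6.33 (siRECK), while Hs606T gave 7.80 and 7.69 (siSCR) and 7.90 and 7.80 (siRECK). All 4 Hs606T arrays thus stood above both LM24175_RECK arrays and above the median of their own arrays. Its partner HLA-DPA1 was below the array medians on all 3 probe sets in Hs606T.

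HLA-DMA and HLA-DMB, the chains of the peptide editor HLA-DM, were above the array medians in all 4 invasive groups, HLA-DMB only slightly in LM24175_RECK. HLA-DMA (217478_s_at) read 8.94 and 9.83 in MDAMB231_EV, 9.48 and 9.36 in MDAMB231_RECK, 8.80 and 8.85 in LM24175_EV, and 7.65 and 8.17 in LM24175_RECK. HLA-DMB (203932_at) read 8.19 and 8.70, 8.23 and 8.20, 7.30 and 7.51, and 6.63 and 6.91 in the same groups. The MDAMB231 groups overlapped for both genes, and LM24175_RECK was lowest without overlap. In the Hs groups HLA-DMA had means of 4.92 to 5.71 and HLA-DMB of 4.74 to 5.32.

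CD74, the invariant chain, overlapped between the empty-vector groups. Its probe set 209619_at read 10.12 and 11.08 in MDAMB231_EV, 10.17 and 10.28 in MDAMB231_RECK, 10.29 and 10.24 in LM24175_EV, and 9.26 and 9.58 in LM24175_RECK. The first 3 of these groups overlapped, and LM24175_RECK lay below all of them. The Hs arrays spread from 4.53 to 5.90, with replicates of Hs606T_siSCR at 5.86 and 4.64.

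CIITA read low on every array. Its brightest probe set, 205101_at, gave 5.42 and 6.01 in MDAMB231_EV, 5.74 and 5.90 in MDAMB231_RECK, 5.29 and 5.14 in LM24175_EV, and 5.24 and 5.11 in LM24175_RECK. The Hs arrays ran from 3.94 to 4.57, below the lower quartile in all 4 groups. The 8 invasive arrays were thus all above the 8 Hs arrays, and all 16 were below their array medians. The other CIITA probe sets did not show this order. On 210925_at the Hs groups had means of 4.82 to 5.20 and the invasive groups of 4.53 to 4.70, and on 211884_s_at all 8 means lay between 4.19 and 4.62.

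Over the 8 group means, HLA-DRA and HLA-DPA1 correlated at r = 0.999, HLA-DRA and HLA-DMA at 0.990, HLA-DRA and HLA-DMB at 0.989, and HLA-DRA and CD74 at 0.986. CIITA on 205101_at correlated with HLA-DRA at 0.976. HLA-DPB1 (r = 0.827) and HLA-DRB4 (r = 0.880) were the least like HLA-DRA. These values describe 8 points that mainly fall into invasive and poorly invasive groups, so any gene that separates those would give a high value.

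LM24175 with the empty vector had less class II transcript than MDAMB231 with the empty vector. HLA-DRA was 2.63-fold lower on 208894_at (95% interval 2.03 to 3.41; log2 difference -1.40, SE 0.17) and 2.68-fold lower on 210982_s_at. HLA-DPA1 was lower by -1.33, -1.26 and -1.18 (log2) on its 3 probe sets, HLA-DPB1 by -1.31 (SE 0.26) and HLA-DMB by -1.04 (SE 0.17). HLA-DRB4 differed most, 9.88-fold on 209728_at (95% interval 6.79 to 14.4; log2 difference -3.30, SE 0.25). Smaller were HLA-DMA at -0.56 (95% interval -1.09 to -0.03), CIITA 205101_at at -0.50 (-0.93 to -0.07) and CD74 at -0.33 (-1.23 to 0.57). Of the 15 probe sets, 8 were called, each of them lower, where 9.59% of all probe sets were called lower. The arrays did not overlap and were lower in 12, where 28.6% of all probe sets did so. The median over the 15 was -1.18, against -0.02 over all probe sets.

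MDAMB231_EV array 1 lay below array 2 in 14 of the 15 probe sets, by a median of 0.52, and in 10 of the 10 that were above the array median. Without array 1, HLA-DRA 208894_at differed by -1.62, HLA-DMA by -1.01 and CD74 by -0.81 between the empty-vector groups, and 10 probe sets were called. Without array 2 the same values were -1.17, -0.11 and 0.15, and 8 were called. The 8 called over all arrays were called in either case. With MDAMB231_EV array 1 as the only array of its group, HLA-DMA and CIITA 205101_at were not called, and with array 2 alone they were.

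In LM24175, cells with the RECK construct had less class II transcript again. This comparison shares its empty-vector arrays with the one before, so an error in those arrays would move both, in opposite directions. HLA-DPA1 was 3.11-fold lower on 211990_at (95% interval 2.14 to 4.5; log2 difference -1.64, SE 0.25), and HLA-DRA was 2.38-fold lower on 208894_at (1.83 to 3.09; -1.25, SE 0.17). HLA-DPB1 differed by -1.15 (SE 0.26), HLA-DMA by -0.92 (SE 0.24), CD74 by -0.84 (95% interval -1.74 to 0.05) and HLA-DMB by -0.63 (SE 0.17). CIITA had small differences on its 3 probe sets, -0.04, -0.05 and 0.07, with an interval on 205101_at of -0.47 to 0.39. HLA-DRB4 differed by -0.10 on 209728_at (-0.64 to 0.44). Of the 15 probe sets 5 were called, each of them lower, where 2.33% of all were called lower. The 5 were both sets of HLA-DRA, 211990_at and 213537_at of HLA-DPA1, and HLA-DPB1. The arrays were lower without overlap in 9, where 23.5% of all probe sets were.

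These calls depended on single arrays. Without LM24175_EV array 1, or without LM24175_RECK array 1, only HLA-DRA 208894_at and HLA-DPA1 211990_at were still called, and without LM24175_EV array 2 HLA-DPA1 213537_at was called as well. Without LM24175_RECK array 2, all 5 and HLA-DMA were called. Whichever array was left out, the differences themselves stayed between -1.51 and -0.99 for HLA-DRA 208894_at. For HLA-DPA1 211990_at they stayed between -1.68 and -1.59. LM24175_RECK array 1 belongs to the pair that deviates together, and without it HLA-DRA 208894_at differed by -0.99. RECK itself differed by -0.42 in this comparison, as given above.

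Of 10 fibroblast markers, 2 were higher with the construct in LM24175 and 0 lower, where 4.97% of all probe sets passed in either direction. COL1A2, a chain of type I collagen, read 4.8 and 5.25 in LM24175_EV and 7.12 and 7.33 in LM24175_RECK (difference 2.20, limma adjusted p = 0.0012). COL3A1, the type III collagen chain, read 3.90 and 3.93, then 5.20 and 5.66 (difference 1.52, adjusted p = 9.61e-04). LUM, the matrix proteoglycan lumican, differed by 1.11 (adjusted p = 0.139), and of 4 endothelial markers, none passing, PECAM1 differed by 0.66 (adjusted p = 0.062) and KDR by 0.66 (adjusted p = 0.101). The summed fibroblast level was 14.19 and 14.23 in LM24175_EV and 14.38 and 14.41 in LM24175_RECK. It sums unlogged values and is almost wholly VIM, so the collagens hardly enter it. VIM read 14.20 and 14.16 in LM24175_EV and 14.37 and 14.33 in LM24175_RECK (difference 0.17, adjusted p = 0.241). The summed endothelial level was 7.42 on both LM24175_EV arrays and 7.88 and 8.10 in LM24175_RECK. FAP and PDGFRA, of the fibroblast list, and CDH5, of the endothelial list, were below the lower quartile in both groups. Between the empty-vector groups, 2 of 10 fibroblast markers were higher in LM24175 and 0 lower, COL1A1 by 3.21 and PDGFRA by 0.49. The PDGFRA call was lost with only the 4 arrays compared (adjusted p = 0.112). Of 8 epithelial markers 1 was higher, KRT7 by 2.29, and 2 were lower, CLDN4 by -3.16 and KRT19 by -1.51. Over all probe sets, 8.13% were called higher and 9.59% lower. The part of these in the class II differences was not tested.

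**Figure D2:**
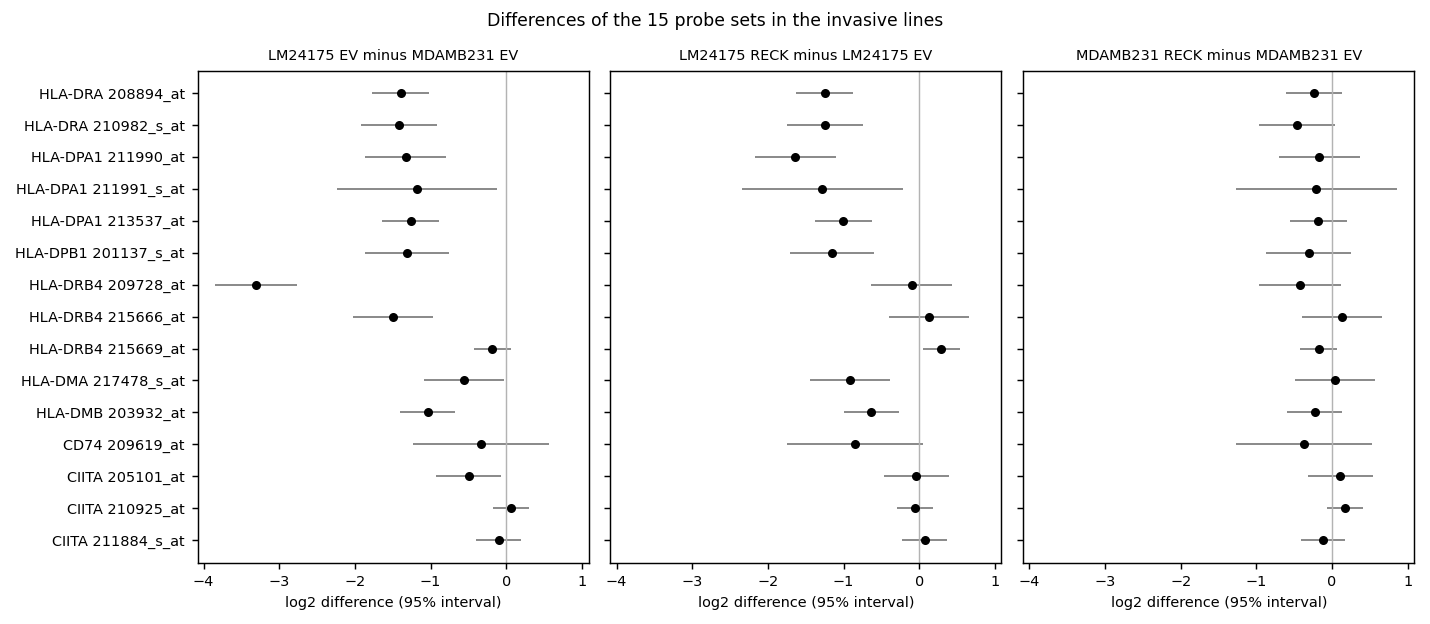
Log2 differences of all 15 probe sets, with 95% intervals of the fit over 16 arrays, for LM24175 against MDAMB231 with empty vector, and for construct against empty vector in each invasive line. HLA-DRA, HLA-DPA1 and HLA-DPB1 lie between -1.64 and -1.0 in the left and middle panels, HLA-DRB4 209728_at is at -3.30 and then at -0.10, and every interval in the right panel includes 0.

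In MDAMB231 the differences with the construct were smaller. HLA-DRA 208894_at differed by -0.24 (95% interval -0.62 to 0.14), HLA-DPA1 211990_at by -0.17 (-0.70 to 0.37), HLA-DPB1 by -0.31 (-0.87 to 0.25), HLA-DMA by 0.04 (-0.49 to 0.56), HLA-DMB by -0.23 (-0.60 to 0.14) and CD74 by -0.37 (-1.27 to 0.53). CIITA 205101_at differed by 0.11 (-0.32 to 0.54). Of the 15 probe sets limma called 0, and 0 were under 0.05 before adjustment, where 0.247% of all probe sets were called in either direction. The arrays were lower without overlap in 3, where 18.4% of all were. HLA-DRA 210982_s_at, lower without overlap, differed by -0.47 (-0.97 to 0.04), and HLA-DPA1 211991_s_at by -0.21 (-1.27 to 0.85). The intervals leave room for a reduction of up to 1.96-fold in HLA-DRA and 2.41-fold in HLA-DPA1 on the probe set with the widest interval.

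These values moved with the empty-vector array used. Without MDAMB231_EV array 1, HLA-DRA 208894_at differed by -0.46, its 210982_s_at by -0.84 (95% interval -1.33 to -0.35), HLA-DPA1 211990_at by -0.56, HLA-DPB1 by -0.74, CD74 by -0.85 and HLA-DMA by -0.41. Without array 2 the same probe sets differed by -0.02, -0.09, 0.23, 0.11, 0.11 and 0.48. The call count stayed at 0 in either case. It became 1 without MDAMB231_RECK array 2, for HLA-DRB4 215666_at, whose MDAMB231_RECK arrays read 5.40 and 4.31.

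**Figure D3:**
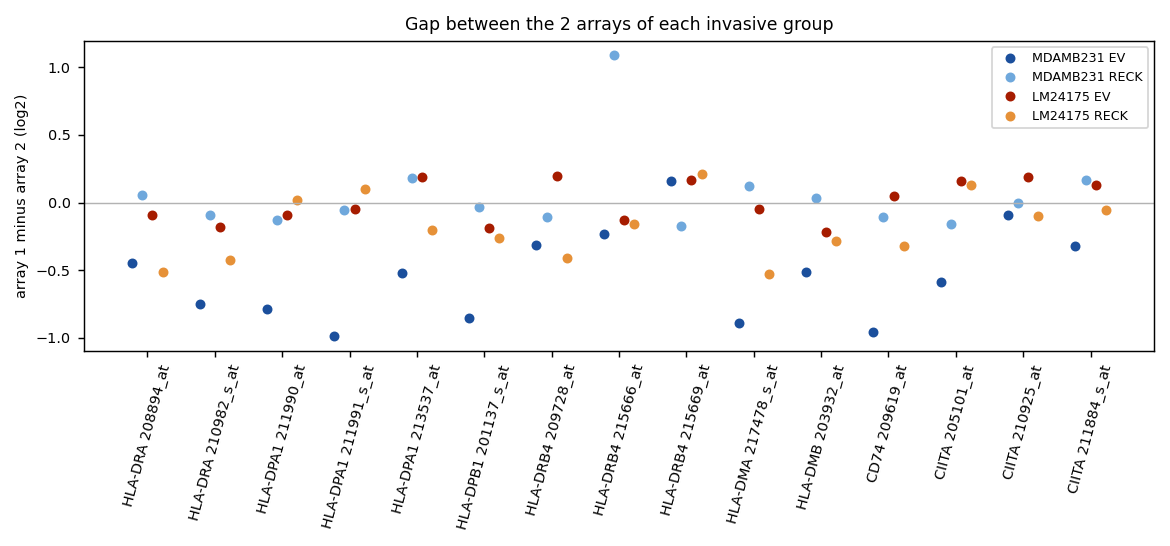
Array 1 minus array 2 of each invasive group for the 15 probe sets (log2). The MDAMB231_EV points lie between -0.99 and 0.16 with a median of -0.52, and LM24175_RECK array 1 is below array 2 in 11 of 15, whereas MDAMB231_RECK and LM24175_EV have medians of -0.03 and -0.05.

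The difference between the responses of LM24175 and MDAMB231 to the construct was larger than the spread for HLA-DPA1 and HLA-DRA in the fit over all arrays. It was -1.47 for HLA-DPA1 211990_at (95% interval -2.23 to -0.71) and -1.01 for HLA-DRA 208894_at (-1.54 to -0.48). These 2 of the 15 were called, where 1.51% of all probe sets were called lower. It was -0.95 for HLA-DMA (-1.70 to -0.21), -0.84 for HLA-DPB1 (-1.63 to -0.05) and -0.47 for CD74 (-1.74 to 0.79), none of them called. The calls were not stable. Without MDAMB231_EV array 1, HLA-DRA gave -0.79 and HLA-DPA1 -1.07 and neither was called, and without array 2 of that group 6 probe sets were. Without both arrays that deviate together, HLA-DRA gave -0.53 and HLA-DPA1 -1.08, and 0 were called.

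The probe sets of the HLA-DR beta chains did not all follow the same course. HLA-DRB4 on 209728_at read 9.0 and 9.31 in MDAMB231_EV, 8.68 and 8.79 in MDAMB231_RECK, 5.95 and 5.75 in LM24175_EV, and 5.55 and 5.95 in LM24175_RECK. The MDAMB231 arrays were all far above the LM24175 arrays, and the LM24175 groups overlapped each other. The probe set 215666_at showed the same shape lower down, with 4.60 and 4.84, 5.40 and 4.31, 3.15 and 3.28, and 3.27 and 3.43 in these groups. The third, 215669_at, lay between 3.76 and 4.30 on all 16 arrays, below the lower quartile in every group. In the Hs lines 209728_at ran from 4.04 to 5.45 and 215666_at from 3.18 to 3.46. The LM24175 arrays lay above that range on 209728_at, but within or just below it on 215666_at. A further fall with the construct could thus hardly show on 215666_at.

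HLA-DRB1, the main DR beta gene and not among the 8, followed HLA-DRA instead. Its probe set 208306_x_at, which is open to cross-hybridisation with other DRB genes, read 10.75 and 11.36 in MDAMB231_EV, 10.73 and 10.74 in MDAMB231_RECK, 9.34 and 9.37 in LM24175_EV, and 8.08 and 8.11 in LM24175_RECK. It was lower in LM24175_EV than in MDAMB231_EV by -1.70 (adjusted p = 3.14e-05, limma) and lower with the construct in LM24175 by -1.26 (adjusted p = 0.0013). HLA-DRB6, a DRB pseudogene, and HLA-DQB1, the DQ beta chain, had the other pattern on cross-hybridising probe sets. HLA-DRB6 (217362_x_at) was lower in LM24175_EV by -2.02 (adjusted p = 1.10e-04) and differed by -0.12 with the construct. HLA-DQB1 (209823_x_at) was lower by -2.02 (adjusted p = 4.54e-06) and then differed by 0.03. In LM24175_EV both sets were already near the level of the Hs groups. HLA-DRB6 had a mean of 6.33 there against 5.88 to 6.29, and HLA-DQB1 6.35 against 5.97 to 6.62. These sets could thus hardly show a further fall with the construct. A cross-hybridising probe set cannot assign signal to 1 DRB or DQB gene, and these sets may read the same transcripts.

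**Figure D4:**
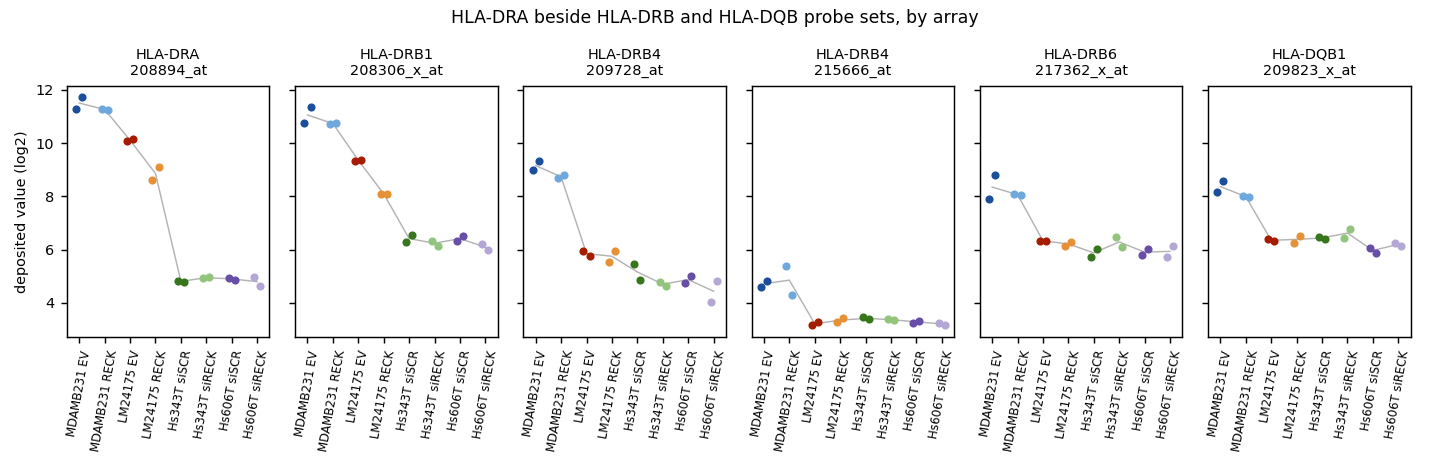
Deposited log2 values by array (points) and group means (line) for HLA-DRA and 5 probe sets of HLA-DRB and HLA-DQB genes. HLA-DRB1 208306_x_at steps down from a mean of 11.06 to 9.36 and 8.09 like HLA-DRA, whereas HLA-DRB4 209728_at drops from 9.16 to 5.85 between the empty-vector groups and stays at 5.75 with the construct.

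Besides the 15, the array carries 24 class II probe sets that are no members, of which 13 are cross-hybridising and 5 name several genes. The 209312_x_at set, named for HLA-DRB1, HLA-DRB4, HLA-DRB5 and HLA-DQB1, had means of 12.38, 12.13, 10.73 and 9.35 in the invasive groups and of 5.13 to 5.59 in the Hs groups. HLA-DQA1, the DQ alpha chain, lay at 3.77 to 3.98 on 203290_at and at 3.20 to 3.52 on 213831_at in all 8 groups. The set 212671_s_at, named for HLA-DQA1 and HLA-DQA2, read 3.43 and 5.01 in MDAMB231_EV and 3.13 and 3.02 in LM24175_EV. HLA-DOA lay at 5.47 to 5.87 on 206313_at. Of the 7 other class II genes read from a probe set that names 1 gene, 3 were lower in LM24175_EV than in MDAMB231_EV. These were HLA-DRB1, HLA-DRB6 and HLA-DQB1, all on cross-hybridising sets, so they may not be separate genes. On sets without that suffix, HLA-DRB6 had means of 3.84 in MDAMB231_EV and 3.94 in LM24175_EV (217323_at). HLA-DQB1 had 3.14 and 3.33 on 209480_at, and 3.96 and 3.63 on 210747_at, all below the lower quartile. Of the 7 genes, 1 was lower with the construct in LM24175 (HLA-DRB1) and 0 passed in MDAMB231. Over all probe sets, 9.59% were called lower between the empty-vector groups and 2.33% lower with the construct in LM24175. In MDAMB231 0.247% were called in either direction.

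Of the factors that bind class II promoters, RFXANK was the one to pass in the invasive lines. RFX5, the large RFX subunit, differed by -0.00 in MDAMB231 (adjusted p = 0.998, limma) and by -0.30 in LM24175 (adjusted p = 0.098) with the construct. Between the empty-vector groups it differed by 0.09 (adjusted p = 0.606). RFXANK, another RFX subunit, read 9.14 ± 0.15 in MDAMB231_EV and 8.43 ± 0.01 in LM24175_EV (SD, n = 2), lower by -0.72 (adjusted p = 2.16e-04), and was higher with the construct in LM24175 by 0.38 (adjusted p = 0.0351). That last call was lost with the replicate block (adjusted p = 0.110), with only the 4 arrays compared (0.156) and without LM24175_RECK array 1 (0.197), LM24175_EV array 1 (0.185) or LM24175_EV array 2 (0.180). RFXAP, NFYA, NFYB, NFYC and CREB1 passed in none of these 3 comparisons, with differences of -0.30 to 0.40. Of the 14 genes of the transcription list that could be read, 1 was higher (KAT2B) and 2 lower (RFXANK and SMARCA4) between the empty-vector groups, where 8.13% of all probe sets were called higher and 9.59% lower, and 1 was higher with the construct in LM24175 (RFXANK). In MDAMB231 limma passed 0, with 1 under 0.05 before adjustment, and RFXANK differed by -0.07 there (adjusted p = 0.819). Over all probe sets, 2.64% were called higher with the construct in LM24175 and 0.247% in either direction in MDAMB231. The calls of KAT2B and SMARCA4 were lost with only the 4 arrays compared (adjusted p = 0.073 and 0.146). KAT2B was also lost without LM24175_EV array 2, and SMARCA4 without any of the 4 arrays.

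No gene of the interferon gamma route to CIITA passed in the invasive lines. Of its 14 genes, limma passed 0 between the empty-vector groups and 0 with the construct in LM24175 or MDAMB231, with 2, 4 and 1 under 0.05 before adjustment. Over all probe sets 17.7%, 4.97% and 0.247% were called in these comparisons. With the construct, 0 of 14 is therefore near the share over all probe sets. IRF1 differed by 0.18, 0.13 and -0.18 in these comparisons, JAK2 by -0.36, -0.14 and -0.11, and IFNGR1 by 0.05, -0.19 and 0.05. IFNGR2, the second receptor chain, differed by -0.80 with the construct in LM24175 (SE 0.22, adjusted p = 0.063). IFNG itself lay at 3.65 to 3.85. IFNB1 differed by 0.16, 0.01 and 0.10, and IFNGR2 in the other 2 comparisons by 0.25 and 0.27. MHC class I and its peptide machinery, with 17 genes read, gave 0 passing genes in limma with the construct in LM24175 (2 under 0.05 before adjustment) and in MDAMB231 (0), and 1 higher (PSMB10, 0.49) and 1 lower (CALR, -0.34) between the empty-vector groups. Leaving out either LM24175_EV array ended both of those calls, as did MDAMB231_EV array 1 for PSMB10 and array 2 for CALR. The shares over all probe sets are those given above. With the construct, the median difference of the 17 was -0.27 in LM24175 and 0.06 in MDAMB231, against 0.00 over all probe sets in each. Between the empty-vector groups it was -0.02, as over all probe sets.

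Of 15 genes that prepare peptides and the invariant chain for class II, 2 passed with the construct in LM24175, both higher, where 2.64% of all probe sets were called higher. In LM24175 the construct was accompanied by higher LAMP2, a lysosomal membrane protein (0.87, SE 0.11, adjusted p = 0.0011), and CTSL, the protease cathepsin L (0.77, SE 0.09, adjusted p = 7.26e-04). Between the empty-vector groups 3 of 15 were higher and 3 lower, where 8.13% and 9.59% of all probe sets were. Higher in LM24175_EV were CTSS, cathepsin S, which trims the invariant chain (1.23, adjusted p = 0.0029), CTSB (1.16, adjusted p = 0.0019) and the cathepsin inhibitor CSTB (0.57, adjusted p = 5.62e-04). Lower were the cathepsin inhibitor CST7 (-1.44, adjusted p = 0.0016), ASAH1 (-0.61, adjusted p = 0.0017) and CTSL (-0.49, adjusted p = 0.0027), the last not called with only the 4 arrays compared (adjusted p = 0.074). CXCR4, a chemokine receptor that can act with CD74, was lower by -0.77 (adjusted p = 0.0057), a call lost without LM24175_EV array 2 (adjusted p = 0.068).

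In Hs343T the class II genes stayed low on arrays labelled siRECK while interferon genes rose. IFNB1, interferon beta, went from 4.26 ± 0.05 on siSCR arrays to 12.76 ± 0.05 on arrays labelled siRECK (SD, n = 2; log2 difference 8.50, SE 0.11, limma adjusted p = 1.70e-13). GBP1 and GBP2, guanylate-binding proteins induced by interferons, rose by 5.23 (adjusted p = 1.07e-10) and 4.04 (adjusted p = 9.96e-07). JAK2 rose by 2.78 (adjusted p = 8.67e-08), IRF1 by 2.65 (adjusted p = 2.40e-08) and RFX5 by 1.78 (adjusted p = 2.66e-08). Over the same arrays HLA-DRA 208894_at differed by 0.14 (95% interval -0.23 to 0.52), HLA-DPA1 211990_at by 0.30 (-0.24 to 0.83), HLA-DPB1 by -0.04 (-0.60 to 0.52), HLA-DMA by -0.37 (-0.89 to 0.16), HLA-DMB by -0.00 (-0.37 to 0.36) and CD74 by -0.02 (-0.91 to 0.88). RECK was higher, not lower, on these arrays.

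Of the 15 probe sets, 1 was called and lower in Hs343T, where 14.7% of all probe sets were called lower. It was CIITA 210925_at, which read 5.12 and 5.27 on siSCR arrays and 4.87 and 4.77 on arrays labelled siRECK (-0.38, 95% interval -0.62 to -0.14). The call was lost with the replicate block and when Hs343T_siSCR array 2, Hs343T_siRECK array 1 or Hs343T_siRECK array 2 was left out. CIITA 205101_at read 4.57 and 4.37, then 4.11 and 4.24, below the lower quartile in both groups, and 211884_s_at differed by -0.09. The arrays were lower without overlap in 7 of the 15, where 37.6% of all probe sets were.

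MHC class I genes rose in Hs343T. Of 17 class I and peptide-supply genes, 14 rose and 0 fell on arrays labelled siRECK, where 11.1% of all probe sets were called higher and 14.7% lower, with a median difference of 1.47 against -0.05 over all probe sets. PSMB9, an immunoproteasome subunit, rose by 5.53 (adjusted p = 4.86e-12), TAP1, a peptide transporter chain, by 3.26 (adjusted p = 1.80e-10), PSMB8 by 2.85 (adjusted p = 3.61e-10), TAP2 by 2.47, ERAP2 by 2.40 and HLA-B by 1.70. Of the 14 genes on the route from interferon gamma to CIITA, 9 rose and 1 fell, against the same shares. SOCS1, an inhibitor of JAK signalling, rose by 3.26 and IRF2 by 1.98, and the phosphatase PTPN11, named after its value was seen, fell by 0.57. IFNGR1 rose by 0.41 (adjusted p = 0.0279), which was lost with the replicate block (0.069), with the 4 arrays alone (0.077) and without Hs343T_siSCR array 2 (0.183) or Hs343T_siRECK array 2 (0.221). IFNG differed by -0.19 (adjusted p = 0.257) and IFNGR2 by 0.14 (adjusted p = 0.710).

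Among other class II genes in Hs343T, 1 of 7 rose on arrays labelled siRECK. It was HLA-DOB, a chain of the inhibitor of HLA-DM, which went from 4.93 ± 0.21 to 5.94 ± 0.32 (SD, n = 2; difference 1.02, adjusted p = 8.75e-04). CTSS rose by 3.34 (adjusted p = 3.48e-07) and LGMN, the protease legumain, by 0.94 (adjusted p = 4.81e-04), while CTSL fell by 1.35 (adjusted p = 3.09e-07), CTSV by 0.58 and LAMP2 by 0.51, so 2 of 15 processing genes rose and 3 fell, where 11.1% of all probe sets were called higher and 14.7% lower. The CTSV call was lost without Hs343T_siSCR array 2 (adjusted p = 0.065) or Hs343T_siRECK array 2 (0.060). The acetyltransferase KAT2B rose by 1.5 (adjusted p = 9.53e-08), and HDAC2, a deacetylase, fell by 0.42 (adjusted p = 0.0085), the latter not without Hs343T_siSCR array 1 (adjusted p = 0.054) or Hs343T_siRECK array 2 (0.075). Of the factors that bind class II promoters, NFYA rose by 0.38 (adjusted p = 0.0466), lost with the mean of its probe sets (0.167), with the 4 arrays alone (0.087), with the replicate block (0.094) and without Hs343T_siSCR array 1 (0.173), array 2 (0.117) or Hs343T_siRECK array 2 (0.328). RFXANK, RFXAP, NFYB, NFYC and CREB1 differed by -0.11 to 0.28 and did not pass (adjusted p = 0.0787 to 0.916). Of the costimulatory and adhesion genes, 4 of 12 rose, where 11.1% of all probe sets did, among them ICAM1 by 2.43 and CD58 by 1.82. SMAD3, which carries the TGF-beta signal that can reduce CIITA, fell by 1.74 (adjusted p = 7.14e-06).

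**Figure D5:**
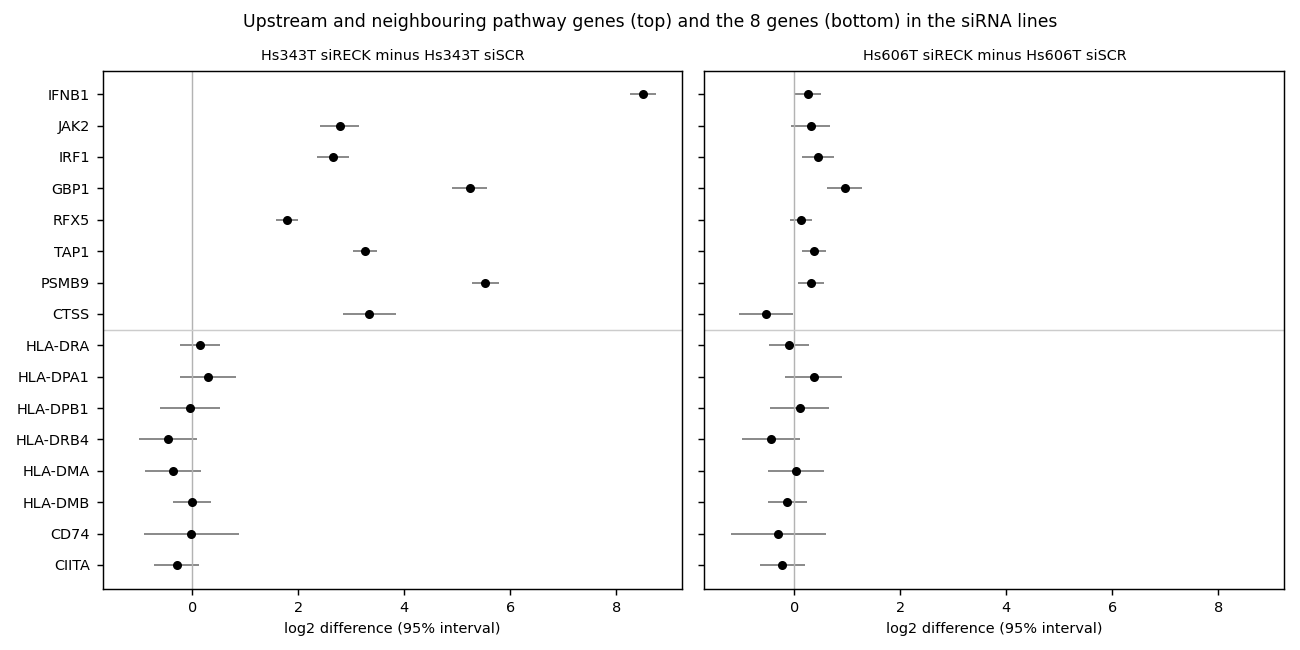
Log2 differences, with 95% intervals, of arrays labelled siRECK minus siSCR in Hs343T and Hs606T for 8 interferon and antigen-presentation genes (top) and the 8 class II genes and CIITA (bottom, each on its brightest probe set). In Hs343T the upper genes lie between 1.78 and 8.50 and every interval of the lower genes includes 0; in Hs606T the upper genes lie between -0.53 and 0.95.

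In Hs606T neither set moved much. GBP1 rose by 0.95 on arrays labelled siRECK (adjusted p = 0.0114), lost with the replicate block (0.056), with the 4 arrays alone (0.158) and without Hs606T_siSCR array 1 (0.096), Hs606T_siSCR array 2 (0.094) or Hs606T_siRECK array 1 (0.121). IFNB1 differed by 0.26 (adjusted p = 0.440), IRF1 by 0.45 (adjusted p = 0.213), JAK2 by 0.31 (adjusted p = 0.552) and RFX5 by 0.12 (adjusted p = 0.702), while RFXANK, RFXAP, NFYA, NFYB, NFYC and CREB1 differed by 0.00 to 0.16, IFNGR1 by 0.06, IFNGR2 by -0.35 and IFNG by 0.03, none passing. Of the class I genes 0 of 17 passed in limma (3 under 0.05 before adjustment). HLA-DRA 208894_at differed by -0.10 (95% interval -0.48 to 0.27), HLA-DPA1 211990_at by 0.37 (-0.17 to 0.90), HLA-DPB1 by 0.11 (-0.45 to 0.66), CD74 by -0.30 (-1.20 to 0.60) and CIITA 205101_at by -0.22 (-0.65 to 0.21). Of the 15 probe sets limma called 0, and 0 were under 0.05 before adjustment, where 0.986% of all probe sets were called. CTSL fell by 0.70 (adjusted p = 0.0027), a call lost with the 4 arrays alone (0.071). For the members the difference between the Hs606T and Hs343T responses was called by limma in 0 of 15, and was under 0.05 before adjustment in 0, where 17.4% of all probe sets were called.

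Between the Hs lines with scrambled siRNA, HLA-DPB1 was the exception. It was 3.38-fold higher in Hs606T than in Hs343T (95% interval 2.29 to 4.97; log2 difference 1.76, SE 0.26), and it was the 1 of 15 probe sets called, where 17.3% of all were called higher. HLA-DRA 208894_at differed by 0.10 (-0.28 to 0.47), HLA-DPA1 211990_at by -0.30 (-0.83 to 0.24), HLA-DMA by 0.38 (-0.14 to 0.91) and HLA-DMB by -0.45 (-0.81 to -0.08). These siSCR arrays are also the controls of the siRECK comparisons. Of 15 processing genes 12 were higher in Hs606T and 0 lower, with LAMP2 at 1.43 (adjusted p = 1.15e-06) and CTSS at 1.2 (adjusted p = 0.0015). GBP2 and GBP1 were higher by 2.63 and 2.20, NFYA by 1.12 and NFYB by 0.79 (adjusted p = 2.82e-05 and 2.52e-05), and the aminopeptidase ERAP2 by 6.31 (adjusted p = 4.27e-10). IRF1 was lower in Hs606T by -0.43 (adjusted p = 0.0294), lost with the 4 arrays alone (0.050) and without Hs343T_siSCR array 2 (0.182) or Hs606T_siSCR array 1 (0.198). RFX5, RFXANK, RFXAP, NFYC, CREB1, JAK2, IFNGR1, IFNGR2, IFNG and IFNB1 differed by -0.26 to 0.26, none passing.

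The genes whose group means were most like those of HLA-DRA were MYO5C (r = 0.995), MERTK (0.995), LRP2BP (0.995), ACP6 (0.995) and CYP26B1 (0.994), out of 5067 candidates and over 8 group means. MYO5C, a class V myosin, had means of 9.94, 9.79, 9.09 and 8.23 in MDAMB231_EV, MDAMB231_RECK, LM24175_EV and LM24175_RECK and of 4.68 to 5.37 in the Hs groups. MERTK, a receptor tyrosine kinase for apoptotic cells, had 8.74, 8.61, 7.76 and 7.07, and 3.93 to 4.62. HLA-DPA1 shared the first 4 of these and had FCMR (0.994) as the fifth. CD74 was most like FOXA2 (0.998), KNTC1 (0.998), SPINT2 (0.998), CPVL (0.997) and ZNF395 (0.997). HLA-DMA was most like LINC00472 (0.994), MYLIP, TMCO6, GART and MTMR4 (each 0.993). These correlations rest on the same contrast of invasive and poorly invasive lines and are given as a description.

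Markers of professional antigen-presenting cells were checked because such cells carry class II. Of 7 leukocyte markers, PTPRC, SPI1 and TYROBP were below the lower quartile in all 8 groups. LAPTM5 was above the median in the 4 invasive groups and LCP1 in both LM24175 groups, so the summed leukocyte level was 10.8 to 12.2 in the invasive lines and 7.52 to 7.80 in the Hs lines. It was 12.2 on both LM24175_EV arrays, 11.6 and 11.9 in LM24175_RECK, and 10.8 and 11.9 in MDAMB231_EV, so it was higher, not lower, in LM24175_EV. Its part in the results was not tested. No B cell marker of 3 read, no macrophage or dendritic marker of 8 and no T cell marker of 3 was above the median in any group. The epithelial markers EPCAM, KRT8, KRT18, KRT19 and KRT7 were above the median in all 4 invasive groups and CLDN4 in the MDAMB231 groups only. KRT18 and KRT19 were above it in all 4 Hs groups too, and CDH1 and ESRP1 were below the lower quartile in all 8. All 10 fibroblast markers, among them COL1A1, COL3A1, PDGFRB and DCN, were above the median in all 4 Hs groups, which are labelled as breast cancer lines. In the invasive groups VIM was, with COL1A1 in both LM24175 groups and COL1A2 in LM24175_RECK.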

How the data were processed

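The authors' deposited table holds 1 log2 value per probe set and array. Biotin-labelled total RNA was hybridised, per the labels, and Partek is named in the submitters' processing notes. How background was corrected and values normalised is not given in the sources used here. Probe sets were named through the platform annotation: 19064 of 22277 name 1 gene and were fitted. The fit was limma 3.58.1 in R 4.3.3, over all 16 arrays with 8 group means (8 residual degrees of freedom), with Benjamini-Hochberg adjustment over all 19064, and it was tested on simulated data. Intervals are 95% moderated intervals. With 2 arrays a group, the number of arrays limits the precision. The 8 genes and every gene list were chosen with earlier results of these data known, and support nothing independently. A listed gene was read from its probe set with the highest mean. Up to 6 passing genes per list and comparison were taken by size, and the text describes only part of them. Passing but not described were, among others, TGFB1, TGFBR2, CD82, CD9, MARCHF8, TNFSF9 and CD40 between the empty-vector groups. With the construct in LM24175, CD9 and CD40 also passed. RFX5, RFXANK, RFXAP, NFYA, NFYB, NFYC, CREB1, IRF1, JAK2, IFNGR1, IFNGR2, IFNG and IFNB1 were taken whatever their values in each comparison of 2 groups. Likeness was taken over genes whose group means ranged over at least 1 log2 unit. Alternatives were quantile normalisation, centring, 1 probe set per gene or their mean, no dim probe sets, another variance prior, only the arrays compared, the replicate number as a block, and each array left out. Leaving out both arrays that deviate together was chosen after seeing the data.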

Additional observations from a re-analysis of the deposited data

Results flagged for a closer look

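Some results differed between the lines under the same contrast, by the test of the difference itself. The change with the RECK construct was lower in LM24175 than in MDAMB231 by -1.01 for HLA-DRA 208894_at (SE 0.24) and by -1.47 for HLA-DPA1 211990_at (SE 0.35). Both genes were chosen with such values known, and both calls were lost with the replicate block, with only the arrays compared, and without most single arrays.

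Between the siRNA lines, the change on arrays labelled siRECK was lower in Hs606T than in Hs343T for 4 genes upstream of or beside class II. The limma difference was -8.25 for IFNB1 (adjusted p = 3.16e-11), -2.47 for JAK2 (adjusted p = 1.31e-05), -2.21 for IRF1 (adjusted p = 7.15e-06) and -1.66 for RFX5 (adjusted p = 2.95e-06). These 4 differences passed in every alternative run, among them the mean of a gene's probe sets, where they were -8.25, -2.62, -2.21 and -1.39.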

How the results depend on the processing

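The 2 arrays of a group limit every call here. The count of called member probe sets between the empty-vector groups was 8 and became 5 with 1 probe set per gene and 5 with the mean of a gene's probe sets (of 8 genes), and ran from 8 to 10 with single arrays left out. With the construct in LM24175 it was 5, became 7 without dim probe sets and 7 with trend and robust eBayes (each adding HLA-DMA and HLA-DMB), and ran from 2 to 6 with single arrays left out, and in MDAMB231 it was 0 and ran from 0 to 1. In Hs343T it was 1, became 0 with 1 probe set per gene, 0 with the mean and 0 with the replicate block, and ran from 0 to 1. Between the siSCR groups it was 1 and became 2 with centring, 3 with only the arrays compared, 2 with the replicate block and 4 without both arrays that deviate together. For the difference of the construct responses it was 2, became 1 with quantile normalisation, 1 with centring, and 0 with the mean, with only the arrays compared, with the replicate block and without both deviating arrays, and ran from 0 to 6. The replicate numbers do not pair the samples (correlations of same-numbered deviations of -0.055 to 0.0091), so the block is given as a check. In the fit of all probe sets, calls with the construct in MDAMB231 numbered 47, against 0 with the block and 755 without MDAMB231_EV array 2, and in LM24175 948, against 204 with only the arrays compared, 503 with the block and 284 to 1008 with single arrays left out. They numbered 188 in Hs606T against 72, 3378 between the empty-vector groups against 1639, and 547 for the difference of the construct responses against 26, each time with only the arrays compared. Of 97 pathway results, 34 lost their call in at least 1 alternative and none reversed. Causes of these shifts were not tested.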
